A study of Mus musculus with 6 samples.

Results

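The genes described here come mostly from families of enzymes that add or remove methyl and acetyl groups on histones. Bromodomain proteins that bind acetylated histones are included. Among the genes are also Eed and Suz12, non-catalytic subunits of such an enzyme complex, and Hdac10, a polyamine deacetylase. All were taken by gene symbol. The rule covered the protein-coding genes of the Kmt, Kdm, Setd, Ezh, Nsd, Ehmt, Hdac, Kat and Brd families plus Eed, Suz12, Ash1l, Dot1l, Ep300 and Crebbp. The rule gave 73 genes of 55416 gene IDs in the count table, 21928 of which carry the protein-coding class, and the rule itself uses no measured value, although it was set with earlier results of these data known. By role there were 7 methyltransferases of histone H3 lysine 4, 4 core components of Polycomb repressive complex 2 (PRC2), 5 methyltransferases of H3 lysine 36 and 6 methyltransferases of H3 lysine 9, H3 lysine 79 or H4 lysine 20. A further 5 were other SET-domain proteins, 18 were lysine demethylases, 10 lysine acetyltransferases, 11 histone deacetylases and 7 bromodomain readers. The older symbol Utx matched no entry, and its gene is counted under the current name Kdm6a.

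The 6 pulldown libraries came from mouse neural progenitor cells of the embryonic brain, all kept quiescent in medium containing 10 ng/ml FGF2 and 20 ng/ml BMP4. In the EU group (n = 3 libraries), 250 µM 5-ethynyluridine, an alkyne-bearing form of uridine that is incorporated during transcription, was added on day 1 of quiescence and RNA was taken on day 8. In the PBS group (n = 3 libraries) the vehicle replaced EU, and the RNA went through the same biotin click reaction and streptavidin pulldown. The labels name no strain, age or sex and state no genetic change in either group. The treatment text of the PBS samples repeats the EU wording, so the groups rest on the treatment label. The EU libraries therefore hold RNA that took up EU after day 1 and was present 7 days later, plus background binding, and the PBS libraries hold background binding alone. The labels do not say whether EU was washed out between day 1 and day 8.

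Histone marks are set by writer enzymes, removed by erasers and read by proteins with binding modules such as the bromodomain. Trithorax-type writers methylate H3 lysine 4 at promoters and enhancers of active genes, PRC2 methylates H3 lysine 27 at silenced developmental genes, and acetyltransferases and deacetylases set the acetylation that bromodomain proteins bind. In neural progenitors these enzymes are known for holding genes of alternative fates and of the cell cycle on or off.

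EU enters RNA at uridines, so the letters that can carry the label are shown for some members. Hdac2 and Ehmt2 had the highest and lowest uridine share, and Kdm7a was the second richest in uridine. Kmt2d was the member with the highest level per kb of exonic length in the EU libraries. Each line gives the first 120 coding bases of the longest coding transcript in GENCODE M21 (build GRCm38), 5′ to 3′, with uridines in capitals.
Hdac2: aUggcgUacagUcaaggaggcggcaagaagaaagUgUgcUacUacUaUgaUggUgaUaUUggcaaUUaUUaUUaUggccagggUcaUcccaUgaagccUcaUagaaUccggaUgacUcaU
Kdm7a: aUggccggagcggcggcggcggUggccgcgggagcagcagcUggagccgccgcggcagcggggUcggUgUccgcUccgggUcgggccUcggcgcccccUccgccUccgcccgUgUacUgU
Kmt2d: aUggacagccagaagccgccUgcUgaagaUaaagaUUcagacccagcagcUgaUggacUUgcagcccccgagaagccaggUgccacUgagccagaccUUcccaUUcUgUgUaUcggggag
Ehmt2: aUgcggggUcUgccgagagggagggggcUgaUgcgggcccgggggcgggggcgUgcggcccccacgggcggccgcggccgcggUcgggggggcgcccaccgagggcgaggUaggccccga
The Hdac2 stretch holds 30 uridines, the Kdm7a stretch 15, the Kmt2d stretch 20 and the Ehmt2 stretch 8. Over whole transcripts uridine made up 32.3% of Hdac2 (1050 of 3250 bases), 30.8% of Kdm7a (2943 of 9566), 20.0% of Kmt2d (3973 of 19823) and 18.1% of Ehmt2 (730 of 4026). The median member held 1219 uridines per transcript at a share of 23.3%, against 827 at 24.6% for the 11097 tested genes with a matched transcript, of 12477 tested. Across the 72 tested members the uridine share had almost no linear relation to the EU over PBS fold (Pearson's r 0.02, Spearman's rho 0.05 across genes, which share the same 6 libraries). For exonic length (log2) and the log2 fold of the same members, r was 0.22 and rho 0.31. The part of length in the folds was not tested.

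EU pulldowns returned far more counts of these genes than PBS pulldowns. The EU libraries held 9564856, 26479031 and 23527595 counts in all and the PBS libraries 647416, 413181 and 729649. A member had a median of 452, 1742 and 1323 counts in the EU libraries, against 29, 28 and 49 in the PBS libraries. Kmt2d had 5884, 17452 and 15922 counts in EU pulldowns and 226, 177 and 407 in PBS pulldowns. All 73 members had at least 1 count in every EU library, and 64 had one in every PBS library. Setd4 and Kdm4d had no count in any PBS library. Without any scaling, the lowest EU count lay above the highest PBS count for 69 of the 72 tested members (98.9% of all genes tested), and edgeR's quasi-likelihood test on the unscaled counts called 71 of 72 higher in EU (98.1% of all genes tested) and 0 lower (0.00801%), with a median log2 fold of 5.15 for the members and 5.09 for all genes. The exceptions in the ranking were Setd6, Hdac10 and Kdm8, and the gene not called was Hdac10. The members' share of calls was thus near that of all genes, and how much of the difference in counts was RNA recovered and how much was sequencing depth cannot be told apart.

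The comparison below is of composition, with each library scaled to CPM, its counts divided by library size in units of 1000000 and by its TMM factor, so it asks whether a gene took a larger share of the EU pulldown than of background binding. After this scaling edgeR's quasi-likelihood test, Benjamini-Hochberg adjusted over 12477 genes, called 0 of 72 members higher in EU, where it called 0.0% of all genes, and 0 lower, where it called 3 genes (0.024%). At an unadjusted p below 0.05, 4 members were higher (Kmt2d, Kmt2b, Brd3 and Setd4), which is 5.56% of the members against 13.0% of all genes, and 1 was lower (Hdac10), which is 1.39% against 4.26%. The smallest adjusted p of any member was 0.0799, for Setd4. With no PBS count, Setd4 passed the low-count filter through its EU libraries alone, so its fold could only be positive. The same holds for 691 of the 12477 genes tested, which enter the shares over all genes, against 1 of the 72 members. Members were also better counted, with at least 10 counts in every PBS library for 66.7% against 34.3% of all genes. The shares are therefore not matched for counts. DESeq2's test called 0 members in either direction (3.95% of all genes higher and 3.49% lower). Limma-voom also called 0 (1.78% and 0.2%), as did edgeR with the replicate number as a block (1.19% and 0.393%). Limma-voom with group weights called 1 member higher, Setd4 (adjusted p = 0.047, against 0.047 to 0.42 over 17 scaled alternatives), and 0 lower (5.79% and 0.297% of all genes). Members had a median log2 fold of 0.16 (quartiles -0.21 and 0.50), against 0.15 (-0.46 and 0.86) for all genes. The fold was positive for 42 of 72 members (58.3%) and for 56.5% of all genes. With library size alone it was positive for 33 members, and the median of all genes moved to -0.02.

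In 17 members every EU library lay above every PBS library, which is 23.6% of those tested against 21.8% of all genes, and in 1 member (Hdac10) every EU library lay below, which is 1.39% against 6.4%. The 17 were the writers Kmt2b, Kmt2c, Kmt2d, Ezh2, Nsd1, Ash1l, Kmt5b, Kat2a and Kat5, the SET-domain genes Kmt2e and Setd4, the demethylases Kdm1b, Kdm3b and Kdm4c, and the readers Brd1, Brd3 and Brd8. Both shares depended on single libraries and on the scaling. Fewer libraries make such a gap easier to reach, and without PBS replicate 2 the number above became 30 (32.4% of all genes), without PBS replicate 3 it became 26 (34.4%), and without PBS replicate 1 the number below became 10 (12.5%). With library size alone the numbers were 7 above (16.5% of all genes) and 4 below (8.0%), with DESeq2 size factors 13 (19.4%) and 6 (7.73%), and after thinning 3 (12.7%) and 1 (6.51%). Brd3, Kat2a, Kat5, Kdm1b, Kmt2b, Kmt2d and Setd4 lay above under each of 4 scalings (TMM, DESeq2 size factors, library size, upper quartile), a pattern shown by 16.0% of all genes, and Hdac10 lay below under each (5.79% of all genes). None of these genes kept its gap after thinning, where Ezh2, Kdm4c and Kmt5b lay above and Ehmt2 lay below. Setd4 had counts in every EU library and none in PBS. It could therefore only lie above under each of the 4 scalings, and its place among the 17 was fixed in advance. The shares over all genes include 691 genes without a PBS count, which could not lie below.

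**Figure D1:**
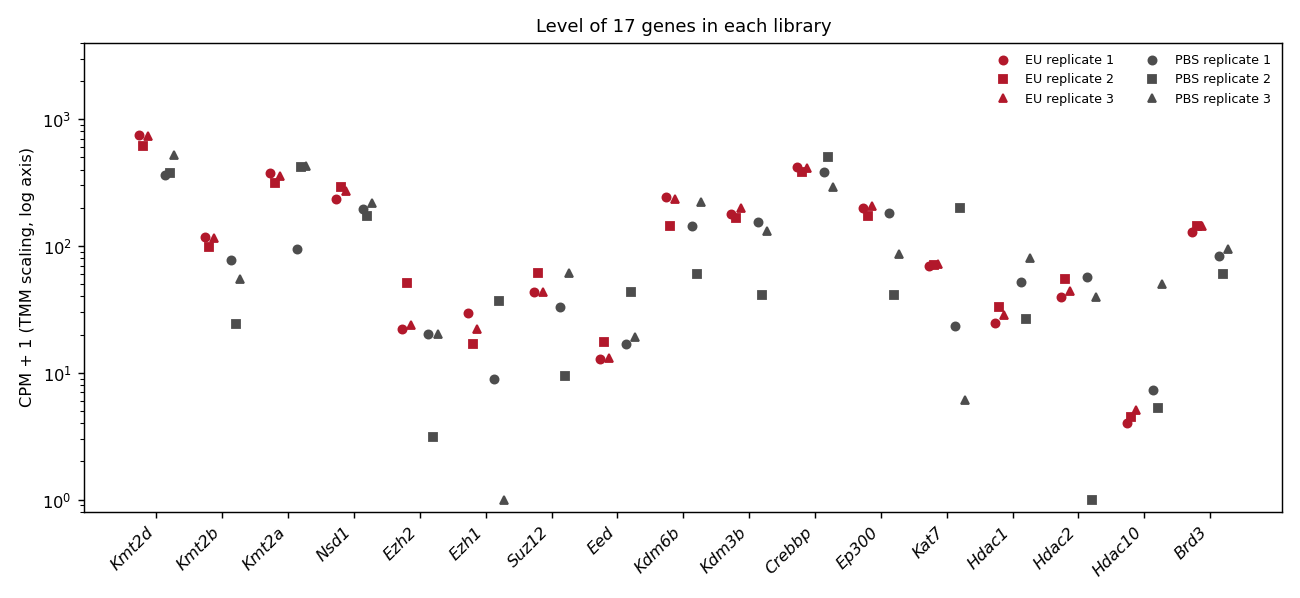
Level of 17 members in each library, as CPM + 1 with TMM scaling on a log axis, with the 3 EU libraries (red) left of the 3 PBS libraries (grey) of each gene. EU points of most genes lie close together, while PBS points often span several-fold, down to no count for Hdac2 in PBS replicate 2 and for Ezh1 in PBS replicate 3.

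The spread of the 2 groups differed. The median coefficient of variation of a member was 9.63% over the EU libraries and 51.3% over the PBS libraries, and after all libraries were thinned to 413181 counts it was 23.0% and 52.6%. A member's highest library was at the median 1.21 times its lowest in EU and 2.67 times in PBS. Across members, log2 CPM of 2 EU libraries correlated with r of 0.973 to 0.995, and log2(CPM + 1) of 2 PBS libraries with r of 0.590 to 0.728, values that describe the libraries over genes and are not tests. Counts of 3 were worth 0.106 to 0.38 CPM in EU libraries and 3.86 to 6.38 CPM in PBS libraries. At least 10 counts in every PBS library were reached by 48 of 72 members (34.3% of all genes), and the remaining 24 rest on fewer counts than that in at least 1 PBS library.

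Per kb of exonic length, the order of the genes was similar in both pulldowns. Exonic length here merges all annotated exons of a gene, and another choice of length could change the order. It was 19931 bases for Kmt2d, whose longest coding transcript has 19823. For Brd2 it was 7826 against 4657 bases, and for Setd5 18347 against 6755. Kmt2d, which methylates H3 lysine 4 at enhancers, had the highest level per exonic length in EU libraries (35.0 ± 3.61 CPM per kb in EU, 21.1 ± 4.55 in PBS, SD, n = 3 each). Among the genes reported here it was followed by Brd2 (32.5 ± 4.12 in EU, 28.4 ± 5.57 in PBS), Kat6a (31.1 ± 3.13 in EU, 32.6 ± 1.56 in PBS), Crebbp (29.9 ± 1.55 in EU, 28.9 ± 7.90 in PBS) and Kdm6b (29.6 ± 7.76 in EU, 20.4 ± 11.7 in PBS). Each of these 5 differed from the next of them in the EU order by less than their SDs. Kdm5c came next at 21.5 ± 2.07 in EU, within the range of the Kdm6b libraries. At the other end stood Hdac10 (1.05 in EU, 5.87 in PBS), Setd4 (0.484 in EU, 0 in PBS) and Kdm4d (0.367 in EU, 0 in PBS). Across the members detected in both groups, log2 CPM per kb of EU and PBS means correlated with r 0.78 and rho 0.83, a description over genes. Members were longer and more abundant than the typical tested gene, with a median exonic length of 7633 against 4529 bases (12441 genes with a length) and a median level, not divided by length, of 59.5 CPM in EU and 60.0 in PBS, against 21.7 in EU and 21.7 in PBS for all genes.

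**Figure D2:**
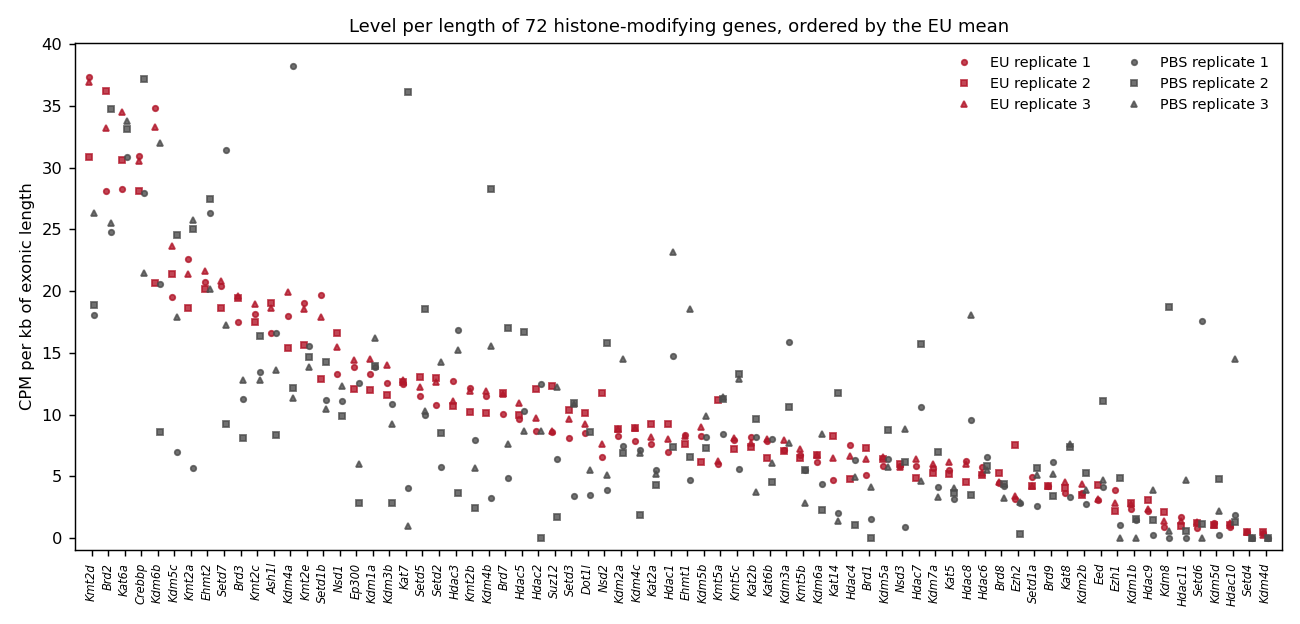
CPM per kb of exonic length for 72 of the 73 members in each of the 6 libraries, ordered by the EU mean, with EU points left of PBS points. Kmt2d, Brd2, Kat6a, Crebbp and Kdm6b stand at the top of the EU order and Hdac10, Setd4 and Kdm4d at the bottom.

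The summed level of the H3 lysine 4 methyltransferases was 2098, 1765 and 2061 CPM in EU libraries and 1296, 1459 and 1613 CPM in PBS libraries, and all EU sums lay above all PBS sums, a gap that closed after thinning. The ratio of mean sums was 1.36, the highest of the 9 roles with TMM scaling, and 1.19 with library size alone. None of the 7 members passed the test, 6 had a positive fold (4 with library size alone) and 3 lay wholly above. For every role such counts stand beside 56.5% positive, 21.8% wholly above and 6.4% wholly below among all genes. Kmt2d had 745, 616 and 736 CPM in EU libraries, against 359, 376 and 524 CPM in PBS libraries. Its log2 fold was 0.73 ± 0.23 (SE, n = 3 each), and it missed the threshold (edgeR adjusted p = 0.127); with any 1 library left out the fold ran from 0.65 to 0.93. Its paralogue Kmt2c, the catalytic subunit of a sister complex, had 368, 355 and 385 CPM in EU and 273, 332 and 259 CPM in PBS, with a smaller gap between the groups (log2 fold 0.36 ± 0.20, edgeR adjusted p = 0.438). Kmt2b, a writer at promoters, had 117, 97.8 and 114 CPM in EU and 76.3, 23.4 and 54.1 CPM in PBS (log2 fold 1.08 ± 0.41, edgeR adjusted p = 0.219). Kmt2a, the founding MLL enzyme, had 377, 311 and 357 CPM in EU and 93.8, 417 and 429 CPM in PBS. Its groups overlapped and its PBS replicate 1 stood apart from the others; its log2 fold was 0.15 ± 0.48, and -0.26 without that library.

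PRC2 core genes summed to 105, 143 and 98.8 CPM in EU and 74.7, 89.3 and 97.9 CPM in PBS, and no member passed the test. Ezh2, the catalytic subunit of dividing cells, had 21.3, 50.0 and 22.8 CPM in EU and 19.1, 2.13 and 19.3 CPM in PBS. The PBS values rest on 12, 1 and 15 counts, and the log2 fold of 1.18 ± 0.81 (edgeR adjusted p = 0.555) was 0.68 without EU replicate 2 and 0.71 without PBS replicate 2. Ezh1, the catalytic subunit that prevails in resting cells, had 28.9, 15.9 and 21.1 CPM in EU and 7.95, 36.1 and 0 CPM in PBS, from 5, 17 and 0 PBS counts. Per kb of exonic length the EU means were 4.69 ± 2.42 CPM for Ezh2 and 2.95 ± 0.873 CPM for Ezh1 (SD, n = 3 each), a difference within the spread of Ezh2. Suz12, a scaffold subunit, had 42.5, 60.7 and 42.7 CPM in EU and 31.8, 8.50 and 60.5 CPM in PBS. Eed, which binds the methylated lysine and stimulates the enzyme, had 11.9, 16.4 and 12.1 CPM in EU and 15.9, 42.5 and 18.0 CPM in PBS, the only core gene with a negative fold (-0.90 ± 0.69, edgeR adjusted p = 0.598, and -0.33 without PBS replicate 2).

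All 5 methyltransferases of H3 lysine 36 had a positive fold with TMM scaling, between 0.08 and 0.49 on the log2 scale (3 of 5 with library size alone), and none passed the test. Their sum was 802, 1009 and 906 CPM in EU and 582, 755 and 802 CPM in PBS, so that EU replicate 1 and PBS replicate 3 met and the groups just overlapped. Nsd1 had 233, 290 and 270 CPM in EU and 194, 172 and 215 CPM in PBS (log2 fold 0.45 ± 0.22, edgeR adjusted p = 0.352). Ash1l had 247, 283 and 277 CPM in EU and 246, 123 and 202 CPM in PBS (0.49 ± 0.28, edgeR adjusted p = 0.451). Both are writers of the dimethyl mark, and their groups did not overlap, although the lowest EU and highest PBS values of Ash1l differed by under 1 CPM. Setd2, the writer of the trimethyl mark in transcribed gene bodies, had 116, 139 and 136 CPM in EU and 62.0, 91.4 and 153 CPM in PBS, with overlapping groups.

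Methyltransferases of H3 lysine 9, H3 lysine 79 and H4 lysine 20 had equal sums within their spread, at 434 ± 13.5 CPM over the EU libraries and 432 ± 61.6 CPM over the PBS libraries (SD, n = 3 each), and 2 of 6 had a positive fold. Ehmt2, which dimethylates H3 lysine 9, had 114, 111 and 119 CPM in EU and 145, 151 and 111 CPM in PBS (log2 fold -0.24 ± 0.24, edgeR adjusted p = 0.714). Its partner Ehmt1 had 67.4, 61.9 and 67.1 CPM in EU and 38.2, 53.2 and 151 CPM in PBS, so that EU values sat inside the PBS range. Dot1l, the H3 lysine 79 enzyme, had 74.3, 88.1 and 80.4 CPM in EU and 30.2, 74.4 and 47.6 CPM in PBS, with EU replicate 1 just below PBS replicate 2, so the groups overlapped. Kmt5b, which adds the second and the third methyl group to H4 lysine 20, had 99.6, 95.7 and 106 CPM in EU and 81.1, 80.8 and 41.2 CPM in PBS (0.58 ± 0.34, edgeR adjusted p = 0.465).

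Among the other SET-domain proteins, Setd5 had 212, 240 and 224 CPM in EU and 183, 340 and 189 CPM in PBS, and Kmt2e, a chromatin protein of the MLL family, had 199, 163 and 194 CPM in EU and 162, 153 and 144 CPM in PBS (log2 fold 0.27 ± 0.22, edgeR adjusted p = 0.613). Setd4, chosen after its values were seen, had 22, 72 and 54 counts in EU and 0 in each PBS library. Its EU mean of 2.61 ± 0.156 CPM was at least 1.63-fold higher than PBS, taking 3 counts over the whole PBS group (1.60 CPM) as the floor. Kdm4d, with 9, 36 and 16 EU counts and 0 in PBS, was under that floor at 1.05 ± 0.276 CPM in EU, so no fold is given. The floors cover counting error only.

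Demethylases divided without a common direction, with 7 positive and 10 negative folds among 17 tested and none past the test. Their sum was 1406 ± 128 CPM for EU and 1331 ± 98.8 CPM for PBS (SD, n = 3 each). Kdm6b, an H3 lysine 27 demethylase, had 242, 144 and 231 CPM in EU and 143, 59.5 and 223 CPM in PBS. Both groups varied widely, EU replicate 2 was the lowest of its group, and the log2 fold was 0.52 ± 0.44 (edgeR adjusted p = 0.641), with 0.17 without PBS replicate 2 and 1.01 without PBS replicate 3. Kdm3b, an H3 lysine 9 demethylase, had 177, 164 and 197 CPM in EU and 153, 40.4 and 130 CPM in PBS (0.72 ± 0.43, edgeR adjusted p = 0.473, and 0.35 without PBS replicate 2). Kdm1a, also known as LSD1, removes methyl groups from H3 lysine 4. It varied little in either group, with 68.6, 62.0 and 75.1 CPM in EU and 71.5, 72.3 and 83.7 CPM in PBS (-0.15 ± 0.29, edgeR adjusted p = 0.874).

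**Figure D3:**
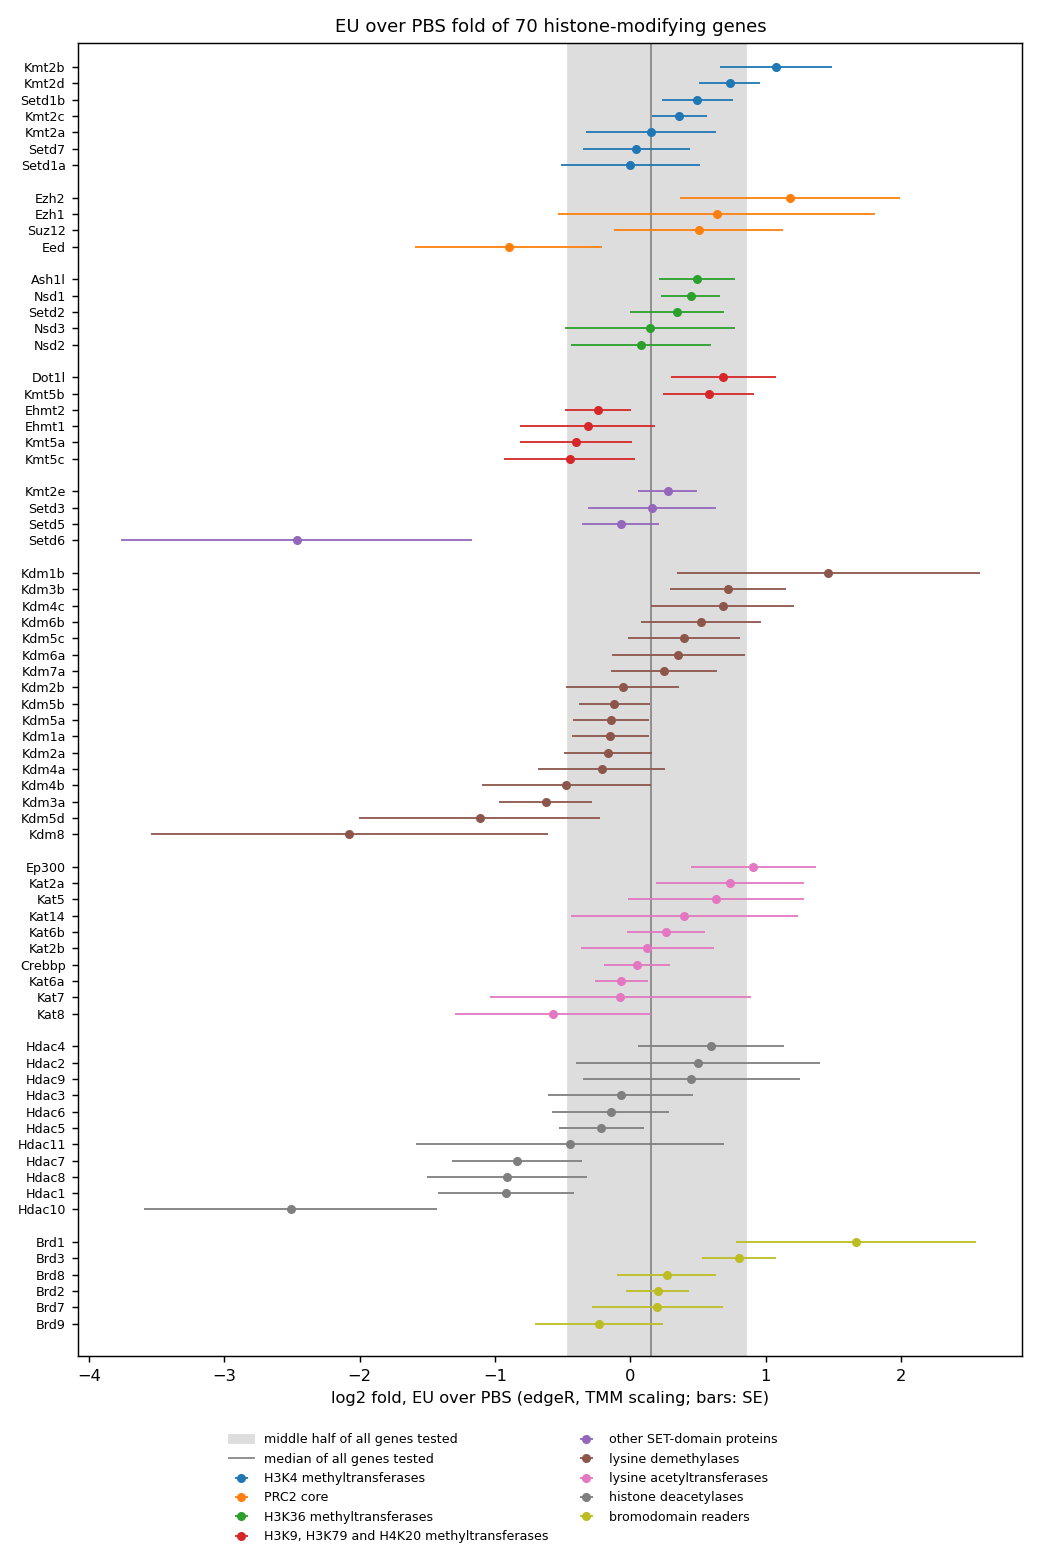
edgeR log2 fold, EU over PBS, of 70 tested members by role, with bars of 1 SE and without Setd4, which has no PBS count; the grey band spans the quartiles of all genes tested and the line is their median. Most members lie inside the band, the folds of H3 lysine 36 methyltransferases are all positive with TMM scaling (3 of 5 with library size alone) and those of deacetylases are mostly negative.

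Acetyltransferases summed to 1206 ± 61.8 CPM for EU and 1078 ± 202 CPM for PBS (SD, n = 3 each), with 7 of 10 folds positive (5 with library size alone) and none past the test. Crebbp and Ep300 are paralogous enhancer acetyltransferases. Crebbp had 419, 381 and 414 CPM in EU and 378, 504 and 291 CPM in PBS, so its groups overlapped (log2 fold 0.05 ± 0.24, edgeR adjusted p = 0.950). Ep300 had 198, 173 and 206 CPM in EU and 180, 40.4 and 85.0 CPM in PBS, with only PBS replicate 1 reaching the EU range (0.91 ± 0.46, edgeR adjusted p = 0.380), and its fold was 1.60 with PBS replicate 1 left out and 0.54 with PBS replicate 2 left out. Per kb, EU libraries held 29.9 ± 1.55 CPM of Crebbp and 13.5 ± 1.21 CPM of Ep300. Kat6a, a MYST-family enzyme, varied little in either group, with 260, 281 and 317 CPM in EU and 283, 304 and 310 CPM in PBS. Kat7, chosen after its values were seen, shows how far PBS values could scatter, with 68.8, 70.1 and 70.8 CPM in EU and 22.3, 200 and 5.15 CPM in PBS, from 14, 94 and 4 PBS counts; its log2 fold of -0.07 became 2.40 without PBS replicate 2.

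Deacetylases were the only role with a lower mean sum in EU under TMM scaling, at 463, 429 and 465 CPM in EU and 531, 389 and 609 CPM in PBS (ratio 0.89), and the groups overlapped. With library size alone the ratio was 0.79, and 4 other roles then also lay below 1: demethylases, acetyltransferases, other SET-domain genes, and the group of H3 lysine 9, H3 lysine 79 and H4 lysine 20. The fold was negative for 8 of 11, also with library size alone, and none passed the test. The class I enzymes Hdac1 and Hdac2 share the same repressor complexes. Hdac1 had 23.9, 31.9 and 27.7 CPM in EU and 50.9, 25.5 and 79.8 CPM in PBS (log2 fold -0.92 ± 0.50, edgeR adjusted p = 0.427). Hdac2 had 38.6, 53.9 and 43.5 CPM in EU and 55.6, 0 and 38.6 CPM in PBS (0.50 ± 0.90, edgeR adjusted p = 0.862). Neither passed the test, and the fold of Hdac2 was -0.05 without PBS replicate 2, its library with no count, and that of Hdac1 was -0.47 without PBS replicate 3. Hdac3, the enzyme of the NCoR complex, had 51.6, 43.4 and 44.9 CPM in EU and 68.4, 14.9 and 61.8 CPM in PBS, with EU inside the PBS range. The class II enzymes Hdac4 and Hdac5 shuttle between nucleus and cytoplasm, and their groups overlapped. Hdac4 had 119, 75.1 and 105 CPM in EU and 100.15, 17.0 and 78.5 CPM in PBS, and Hdac5 had 84.8, 87.2 and 96.2 CPM in EU and 90.6, 147 and 76.0 CPM in PBS. Hdac10, a polyamine deacetylase, had 3.04, 3.46 and 4.11 CPM in EU and 6.36, 4.25 and 48.9 CPM in PBS, where the counts were 4, 2 and 38. Its log2 fold of -2.51 ± 1.08 (edgeR adjusted p = 0.286) was -0.60 without PBS replicate 3.

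Bromodomain readers summed to 845, 853 and 889 CPM in EU and 599, 700 and 779 CPM in PBS, with every EU library above every PBS library (not so with library size alone or after thinning). Brd2 and Brd3 are BET proteins that tie acetylated chromatin to transcription. Brd2 had 220, 284 and 260 CPM in EU and 194, 272 and 199.6 CPM in PBS, with overlapping groups. Brd3 had 128, 143 and 144 CPM in EU and 82.7, 59.5 and 94.0 CPM in PBS. Its groups did not overlap, yet it missed the threshold (log2 fold 0.80 ± 0.27, edgeR adjusted p = 0.160), and with any 1 library left out the fold ran from 0.64 to 0.95. Brd1, a scaffold of MYST acetyltransferase complexes, had 42.9, 61.1 and 54.0 CPM in EU and 12.7, 0 and 34.8 CPM in PBS (1.67 ± 0.89, edgeR adjusted p = 0.409), and its fold was 2.93 without PBS replicate 3 and 1.13 without PBS replicate 2.

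Members outside the named set are described here by values chosen after they were seen. Kat2a, a GCN5-type acetyltransferase, had 26.4, 32.0 and 28.6 CPM in EU and 19.1, 14.9 and 18.0 CPM in PBS. Kat5, the catalytic subunit of the TIP60 complex, had 19.4, 18.2 and 21.5 CPM in EU and 11.1, 12.8 and 14.2 CPM in PBS. Both had tight groups that did not overlap under any of the 4 scalings, yet their folds were within about 1.5 times their SE (log2 fold 0.74 ± 0.55 for Kat2a and 0.63 ± 0.65 for Kat5, edgeR adjusted p = 0.583 and 0.724). After thinning, neither gene kept this gap. Setd1b, an H3 lysine 4 writer, had 238, 155 and 216 CPM in EU and 135, 172 and 126 CPM in PBS, with EU replicate 2 inside the PBS range. The most negative folds beside that of Hdac10 belonged to low genes in which 1 PBS library held nearly all PBS counts. Setd6 had 1.52, 2.36 and 2.49 CPM in EU and 33.4, 2.13 and 0 CPM in PBS, from 21, 1 and 0 PBS counts (log2 fold -2.47 ± 1.30, and 1.42 without PBS replicate 1). Kdm8 had 2.15, 4.97 and 3.28 CPM in EU and 0, 44.6 and 1.29 CPM in PBS, from 0, 21 and 1 PBS counts (log2 fold -2.08 ± 1.47, and 2.31 without PBS replicate 2). Among larger counts, Kdm3a, an H3 lysine 9 demethylase, had 58.7, 57.7 and 65.3 CPM in EU and 130, 87.2 and 63.1 CPM in PBS, and Hdac7, a class II deacetylase, had 39.4, 32.9 and 43.3 CPM in EU and 71.5, 106 and 30.9 CPM in PBS. In both, a single PBS library lay within the EU range or below it (log2 fold -0.62 ± 0.34 and -0.84 ± 0.48, edgeR adjusted p = 0.428 and 0.451), and the folds were -0.28 for Kdm3a without PBS replicate 1 and -0.40 for Hdac7 without PBS replicate 2.

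Within the EU group, replicate 2 differed for a few members. It held at least 1.5 times the higher of the other replicates in 4 members (5.56% of those tested, against 7.74% of all genes), which were chosen by this ratio after the values were seen and get no test. The ratios were 2.2 for Ezh2, 1.79 for Kmt5a, the H4 lysine 20 monomethyltransferase, 1.55 for the H3 lysine 36 enzyme Nsd2 and 1.52 for Kdm8. Kmt5a had 31.8, 59.4 and 33.2 CPM in EU and 44.5, 59.5 and 60.5 CPM in PBS, and Nsd2 had 111, 197 and 127 CPM in EU and 65.2, 266 and 86.3 CPM in PBS. Only Kdm6b lay as far below, at 0.621 of the lower of the others (6.55% of all genes). The 10 cell cycle markers, which label dividing cells, moved with this library: their sum was 273, 1153 and 277 CPM in EU and 121, 253 and 185 CPM in PBS, and Mki67, a gene of proliferating cells, had 96.7, 438 and 95.6 CPM in EU and 25.4, 93.6 and 32.2 CPM in PBS. Their part in the levels of these members was not tested.

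**Figure D4:**
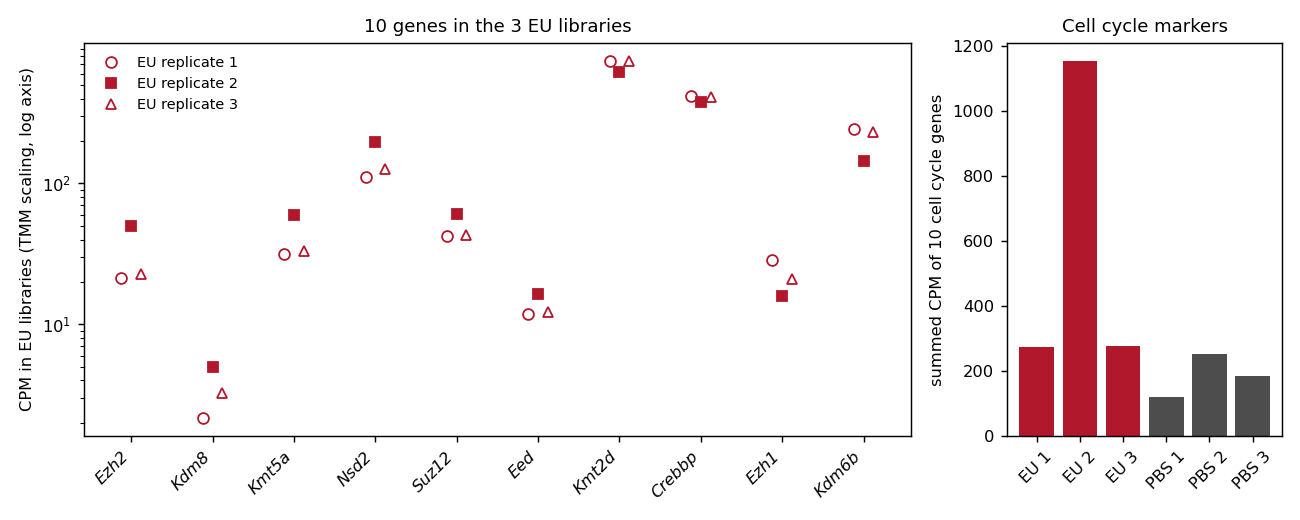
Left, level of 10 members in the 3 EU libraries, in CPM on a log axis, with EU replicate 2 as filled squares; right, the summed CPM of 10 cell cycle markers in each EU (red) and PBS (grey) library. EU replicate 2 is the highest EU library for Ezh2, Kdm8, Kmt5a and Nsd2 and the lowest for Kdm6b, and its cell cycle sum is 1153 CPM.

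Neural progenitor markers were present in every library as a set, as were astrocyte markers, although the progenitor marker Hes1 had 0, 3 and 0 PBS counts. The sum of 12 progenitor markers was 3277 to 4449 CPM in EU and 3793 to 4597 CPM in PBS. That of 7 astrocyte markers was 6248 to 11469 CPM in EU and 9357 to 16724 CPM in PBS. For 9 neuron markers it was 541 to 679 CPM in EU and 576 to 870 CPM in PBS. Snap25 and Stmn2 were at 0 in every PBS library and also low in EU, with 11, 21 and 16 counts for Snap25 and 0, 1 and 0 for Stmn2. Map2 alone gave 510 to 616 CPM of the neuron sum in EU and 536 to 580 CPM in PBS. Gfap alone gave 79.1 to 685 CPM of the astrocyte sum in EU and 1589 to 7440 CPM in PBS. Of the 7 astrocyte markers, 4 had a positive and 3 a negative fold. Oligodendrocyte lineage markers (7 genes) summed to 989 to 1475 CPM in EU and 601 to 708 CPM in PBS, so the groups did not overlap. Mog was at 0 in PBS and had 1, 0 and 0 counts in EU. Microglia markers were at or near 0 in every library, as were vascular markers at up to 2.75 CPM in EU and 3.18 CPM in PBS. In bulk RNA, fewer cells of a type and less RNA per cell cannot be told apart, and the part of the marker levels in the members' values was not tested.

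Partner subunits of the complexes these enzymes work in, sirtuins and other chromatin readers were listed separately. They gave 67 genes, of which 65 were tested. None was called in either direction, 8 had an unadjusted p below 0.05 (13.0% of all genes were higher and 4.26% lower at that p), and 41 had a positive and 24 a negative fold (56.5% of all genes were positive), with a median log2 fold of 0.22 against 0.15 for all genes. By group, the median was -0.06 for 10 COMPASS and MLL partners, 0.22 for 7 tested PRC2 partners, 0.38 for 15 deacetylase complex partners, 0.39 for 20 tested acetyltransferase partners, 0.26 for 5 sirtuins and 0.12 for 8 other chromatin readers. The 4 with the smallest p included 2 subunits of SIN3 deacetylase complexes without a count in PBS. These were Ing1, which binds trimethylated H3 lysine 4 and was listed with the acetyltransferase partners, with 13.5, 22.6 and 19.5 CPM in EU and 0 in every PBS library (edgeR adjusted p = 0.080), and Sap30, with 5.44, 8.32 and 7.21 CPM in EU and 0 in every PBS library (edgeR adjusted p = 0.080). Ing1 and Sap30 passed the low-count filter through their EU libraries alone, so their folds could only be positive. Of the 12477 genes tested, 691 had no PBS count. Gps2, of the NCoR complex, had 18.5, 16.9 and 20.3 CPM in EU and 0, 0 and 2.58 CPM in PBS (edgeR adjusted p = 0.103). The deacetylase Sirt2 had a fold of opposite sign, with 220, 133 and 187 CPM in EU and 343, 340 and 277 CPM in PBS (log2 fold -0.83 ± 0.25, edgeR adjusted p = 0.124).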

How the data were processed

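RNA was measured in 3 EU and 3 PBS pulldown libraries, grouped by the treatment label. Raw, unscaled counts (whole numbers) for 55416 Ensembl IDs are what the authors deposited, in 1 table. Tools listed in the submitters' processing notes, with no role stated, are featureCounts 2.0.1, STAR 2.7.10b, UMI-tools 1.1.2 and bcl2fastq 2.20.0, and the listed build is GRCm39. How strand and multi-mapping reads were treated is not given in the sources used here; near-identical, overlapping and antisense genes are therefore uncertain. The labels do not say that replicates were separate cultures, and p-values then cover only library-to-library spread, which may be technical. No library repeated another: counts of replicates differed by more than sampling noise.

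Symbols came from a gene name table (52083 IDs matched), and classes, exonic lengths and transcripts from GENCODE M21 on GRCm38 (3281 IDs had no class), all 73 members being matched. That build differs from the counts' build, so no coordinates are given. The members and lists were chosen with earlier results of these data known. The test was edgeR 4.0.16 (glmQLFit, R 4.3.3) with TMM factors, filterByExpr and group as the only term, Benjamini-Hochberg adjusted over the 12477 genes kept, threshold 0.05. The SE of a log2 fold is its size over the square root of F. The values of 1 member, which enters counts and sums only, are not reported here. Named genes were a fixed set, the 2 most abundant tested members of each role and any called member. Up to 10 members per direction were added by smallest p, among those with non-overlapping groups and a mean of at least 5 CPM. From the lists of partners, sirtuins and other readers, the 4 genes with the smallest p were named. Other single genes were chosen after their values were seen. Alternatives were other scalings and filters, DESeq2 1.42.0, limma-voom (limma 3.58.1), thinning, the replicate number as a block and leaving out each library (single-gene folds then keep the 12477 genes); unscaled counts were added after the data were seen. Only the edgeR test was tried on simulated data. Both groups were given the same noise there, so the trial does not cover the unequal spread of the EU and PBS libraries.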

Additional observations from a re-analysis of the deposited data

How the results depend on the processing

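No member was called lower in EU under any alternative run, and members were called higher in EU only with unscaled counts (71) and limma-voom with group weights (1). Calls over all genes moved more. Genes higher in EU (0 as reported) numbered 148 with the replicate number as a block, 3 with library size alone, 12240 with unscaled counts, 121 with no low-count filter, 493 with DESeq2, 222 with limma-voom, 723 with group weights and 1 after thinning. Genes lower in EU (3 as reported) numbered 49 with the block, 7 with DESeq2 size factors, 40 with library size alone, 1 with unscaled counts, 336 with no low-count filter, 435 with DESeq2, 25 with limma-voom, 37 with group weights and 9 after thinning, and 0 to 11 with 1 library left out (12 at most over the genes of the full table). The labels do not say that equal replicate numbers are pairs, so the replicate block was not used as the main design. Same-numbered libraries deviated together only weakly (correlations 0.074, 0.051 and 0.034). Each was the best match of its library, a hint from the data and not from the design. The block changed no member's call. Members with all EU libraries above PBS (17) numbered 7 with library size alone, 69 with unscaled counts, 3 after thinning and 18 to 30 with 1 library left out. Members below (1) numbered 6 with DESeq2 size factors, 4 with library size alone, 0 with unscaled counts and 2 to 10 with 1 library left out.

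Library size alone lowered the median log2 fold of all genes to -0.02, against 0.15 with TMM, and summed levels moved with it: the log2 of EU over PBS became 0.26 (0.27 after thinning) for H3 lysine 4 methyltransferases, 0.14 (0.15 after thinning) for readers, -0.17 for the H3 lysine 9, H3 lysine 79 and H4 lysine 20 group, -0.11 for demethylases and 0.033 for all members (0.081 after thinning, 0.11 with DESeq2 size factors). With 1 library left out these sums ran from 0.38 to 0.52, 0.24 to 0.41, -0.09 to 0.09, 0.03 to 0.15 and 0.17 to 0.25. Other sums left-out ranges were 0.23 to 0.45 for H3 lysine 36, 0.23 to 0.52 for PRC2, -0.33 to -0.01 for deacetylases, 0.03 to 0.31 for acetyltransferases and -0.01 to 0.24 for other SET-domain genes.

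Of the log2 folds of named members under alternatives, 641 kept their sign and 34 changed it, all of them small and none called. Crebbp became -0.050 with DESeq2 size factors, -0.047 with the DESeq2 test, -0.14 with library size alone, -0.010 with a mean of at least 10 CPM and -0.11 after thinning. Hdac2 became -0.068 after thinning. Hdac3 became 0.14 with the replicate block, 0.071 with no filter and 0.13 with limma-voom with or without group weights. Kat6a became 0.077 with no filter, Kmt2a -0.073 with library size alone and -0.11 after thinning, and Setd5 0.072 with no filter, 0.063 with limma-voom and 0.037 with group weights. With 1 library left out and the filter redone the ranges were -0.063 to 0.33 for Crebbp, 0.011 to 1.19 for Hdac2, -0.42 to 0.30 for Hdac3, -0.34 to 0.16 for Hdac5, -0.20 to 0.023 for Kat6a, -0.22 to 0.52 for Kmt2a and -0.18 to 0.33 for Setd5. With the genes of the full table kept, the sign changed for Crebbp (-0.12 without PBS replicate 3), Hdac2 (-0.049 without PBS replicate 2), Hdac3 (0.25 without PBS replicate 1 and 0.13 without PBS replicate 3), Hdac5 (0.10 without PBS replicate 2), Kat6a (0.012 without EU replicate 1), Kmt2a (-0.26 without PBS replicate 1) and Setd5 (0.27 without PBS replicate 2). For each of these the cause was not tested. At least 10 counts in every PBS library were reached by 48 of 72 members.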
